A study of Mus musculus with 34 samples.

Results

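The 10 glycolysis enzymes described here are *Hk1*, *Hk2*, *Gpi1*, *Pfkl*, *Pfkp*, *Aldoa*, *Pgk1*, *Pgam1*, *Pkm* and *Ldha*, chosen by name from the 13108 genes of the count table, and all 10 were present. They were measured in hematopoietic stem cells (HSCs; LSK CD48- CD150+) sorted from C57BL/6 mice, and every library was made from 100 cells by SMART-Seq2, which amplifies full-length cDNA. *Ythdf2* encodes a reader of the mRNA modification m6A that promotes decay of its targets. In *Ythdf2* CKO mice (*Ythdf2* fl/fl;*Vav-iCre*) the Cre is driven by the Vav promoter, which is active across the blood system, and removes exon 2 of *Ythdf2*. *Ythdf2* CTL mice (*Ythdf2* fl/fl, without Cre) carry the same floxed allele, which also holds GFP. Young mice were 8 to 12 wk old, with 4 *Ythdf2* CTL and 4 *Ythdf2* CKO. Aged mice, 1 yr old, were 4 *Ythdf2* CTL and 5 *Ythdf2* CKO. Each mouse gave 2 libraries, which were summed, and 1 library of aged *Ythdf2* CTL mouse 99 was left out for its low counts.

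Glycolysis turns glucose into pyruvate in the cytosol and yields ATP without oxygen. Hexokinases trap glucose as glucose 6-phosphate, phosphofructokinases commit it to the pathway, later enzymes harvest ATP and NADH, and lactate dehydrogenase recycles NADH by making lactate. Quiescent HSCs in the marrow are known for a low mitochondrial activity and for relying on glycolysis, and HIF-1 and MYC are known activators of many of these genes.

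The libraries held between 1859784 and 7784627 counts (median 3038180), and the mice between 2218618 and 10125624 counts. A level is given as CPM, the counts of a mouse scaled to a common library size by the TMM method, and every level of the 10 enzymes rests on at least 102 counts in a mouse. *Ythdf2* itself stood between 93.3 and 123 CPM in young *Ythdf2* CTL mice and between 50.3 and 60.2 CPM in young *Ythdf2* CKO mice. Among aged mice, the mouse labelled *Ythdf2* CKO 121 had 188 CPM and the mouse labelled *Ythdf2* CTL 124 had 70.4 CPM, against 72.4 to 87.7 CPM in the other *Ythdf2* CKO mice and 142 to 179 CPM in the other *Ythdf2* CTL mice. These 2 mice go against their labels, so results in aged mice are also given without them where this changes a call of an enzyme. With all mice the log2 fold change of *Ythdf2* in aged mice was -0.48 (edgeR, adjusted p = 0.661). Since the 2 mice stand out by *Ythdf2* itself, no test of it without them is given. Y-linked genes had 512 counts or more in 3 of 4 young *Ythdf2* CTL mice, 1 of 4 young *Ythdf2* CKO mice, 1 of 4 aged *Ythdf2* CTL mice and 1 of 5 aged *Ythdf2* CKO mice, and at most 1 count in the others. The sample codes in the labels differ between young and aged libraries in a part that all libraries of an age share, so age and anything else that goes with these codes cannot be told apart. All 12 genes of a list of HSC markers were in the table, with a summed level between 1404 and 2965 CPM over all mice, and of 5 T cell genes 1 was in the table. The summed level of 7 erythroid genes in the table was between 1889 and 3677 CPM, above that of the HSC markers in some mice, and that of 8 myeloid genes between 564 and 1256 CPM. Of these, 4 erythroid and 5 myeloid genes had enough counts to be tested, so the sums do not stand for every gene in them. *Car2* alone, of the erythroid genes, stood between 1780 and 3578 CPM. *Cd48*, which the gate sorts against, stood between 53.8 and 106 CPM in young mice and between 0.629 and 28.2 CPM in aged mice.

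The promoters of 4 members are shown first, because HIF-1 and MYC are known regulators of the pathway and the members differ in the motifs they hold. The window holds 300 bases, from 250 before to 50 after the most upstream start in RefSeq (GRCm38.p6), and all 10 members matched. Capitals mark ACGTG or its reverse complement CACGT, a form of the core that HIF-1 is known to bind. These letters lie also within the E-box CACGTG known for MYC. Another form of that core, GCGTG, was neither searched nor marked. *Ldha* holds ACGTG on either strand at 3 places, of which 2 are CACGTG, and *Pgk1* and *Hk2* hold it at 2 places each. *Pkm*, the member with the largest age difference in *Ythdf2* CKO mice, does not hold it in this window.
Ldha, chr7:46845554-46845853, plus strand: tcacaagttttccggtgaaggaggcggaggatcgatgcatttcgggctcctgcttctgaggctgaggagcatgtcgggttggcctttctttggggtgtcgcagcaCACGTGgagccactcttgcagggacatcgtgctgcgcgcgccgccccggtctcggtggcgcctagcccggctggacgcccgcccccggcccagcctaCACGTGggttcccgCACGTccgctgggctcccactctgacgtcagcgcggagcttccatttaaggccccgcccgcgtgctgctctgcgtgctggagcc
Pgk1, chrX:106186850-106187149, plus strand: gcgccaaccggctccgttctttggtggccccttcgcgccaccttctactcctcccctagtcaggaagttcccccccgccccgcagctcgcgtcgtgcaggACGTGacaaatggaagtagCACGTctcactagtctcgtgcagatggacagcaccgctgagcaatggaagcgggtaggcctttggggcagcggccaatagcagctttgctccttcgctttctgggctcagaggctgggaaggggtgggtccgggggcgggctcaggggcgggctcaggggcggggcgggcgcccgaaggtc
Hk2, chr6:82774405-82774704, minus strand: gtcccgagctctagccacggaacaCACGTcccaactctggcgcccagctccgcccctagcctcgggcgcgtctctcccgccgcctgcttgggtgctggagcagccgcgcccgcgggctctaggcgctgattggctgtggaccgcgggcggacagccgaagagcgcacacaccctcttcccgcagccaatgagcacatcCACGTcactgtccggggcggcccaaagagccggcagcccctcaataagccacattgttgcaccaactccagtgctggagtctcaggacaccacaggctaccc
Pkm, chr9:59656326-59656625, plus strand: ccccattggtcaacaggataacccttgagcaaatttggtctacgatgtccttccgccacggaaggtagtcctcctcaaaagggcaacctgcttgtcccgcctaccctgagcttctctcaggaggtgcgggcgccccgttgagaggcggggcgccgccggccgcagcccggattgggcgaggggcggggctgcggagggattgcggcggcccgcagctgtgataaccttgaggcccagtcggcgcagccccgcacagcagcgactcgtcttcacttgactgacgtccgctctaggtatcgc
Of the 10 members, 4 hold ACGTG on either strand (*Ldha*, *Pgk1*, *Hk2* and *Pgam1*), against 19.6% of 32851 promoters. These promoters include every listed start of a gene, whereas a member is counted by its most upstream start alone. *Aldoa* has 3 listed starts and *Hk1*, *Pkm* and *Ldha* have 2 each, so their matches can depend on the start taken. CACGTG is held by 1 of the 10, *Ldha*, against 7.15% of all promoters. The GC-rich motif CCGCCC, searched on both strands, is held by 8 of the 10, all but *Hk1* and *Aldoa*, against 35.7% of all promoters, and TATAAA by 0 of the 10 against 13.6%. *Pfkl* and *Pfkp* hold CCGCCC but not ACGTG, as *Pkm* does. These are matches of letters in a fixed window and do not show binding.

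Levels of different enzymes were compared per kb of annotated exons. In young *Ythdf2* CTL mice, *Ldha*, which makes lactate from pyruvate, led with 843 ± 49.0 CPM per kb (SD, n = 4 mice here and for the other young *Ythdf2* CTL values). *Aldoa*, the main aldolase outside liver and brain, followed with 414 ± 67.1 CPM per kb. *Pkm*, which gives the last ATP-yielding step from phosphoenolpyruvate, had 125 ± 18.8 CPM per kb. The ranges of these 3 did not overlap in any of the 4 groups. Their order depends on the length taken for *Aldoa*, which has 2 records in GENCODE M21, with 1824 bases of exons in the one used and 741 in the other. In a check added after seeing the data, the shorter record put *Aldoa* first, with 1019 CPM per kb in young *Ythdf2* CTL mice and a range that overlapped that of *Ldha* in all groups but young *Ythdf2* CKO, and the exons of both records put it second again, with 294 CPM per kb and ranges that overlapped those of *Pkm* in both aged groups.

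Below them came the middle of the pathway. *Gpi1*, which interconverts glucose and fructose 6-phosphates, had 94.7 ± 10.3 CPM per kb, and *Pgk1*, the first ATP-yielding enzyme, 82.7 ± 11.2 CPM per kb. Their ranges overlapped in young mice of both genotypes and did not overlap in aged mice of either genotype. *Pgam1*, a phosphoglycerate mutase, had 34.9 ± 5.90 CPM per kb, and *Pfkl*, the liver-type phosphofructokinase, 22.4 ± 3.74 CPM per kb. *Pfkl* was seventh in young mice and sixth in aged mice, where it stood at 39.6 ± 16.9 CPM per kb in *Ythdf2* CTL (n = 4) and 49.4 ± 7.03 CPM per kb in *Ythdf2* CKO (n = 5).

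The lowest levels per kb belonged to *Pfkp*, the platelet-type phosphofructokinase, and to the hexokinases. *Pfkp* had 16.3 ± 1.95 CPM per kb and *Hk1* 14.6 ± 2.45 CPM per kb in young *Ythdf2* CTL mice, with overlapping ranges in all 4 groups. *Hk2* was last in every group, with 7.94 ± 1.71 CPM per kb in young *Ythdf2* CTL mice. Its range lay below that of the next enzyme in 3 of 4 groups and overlapped that of *Hk1* in aged *Ythdf2* CTL mice.

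**Figure D1:**
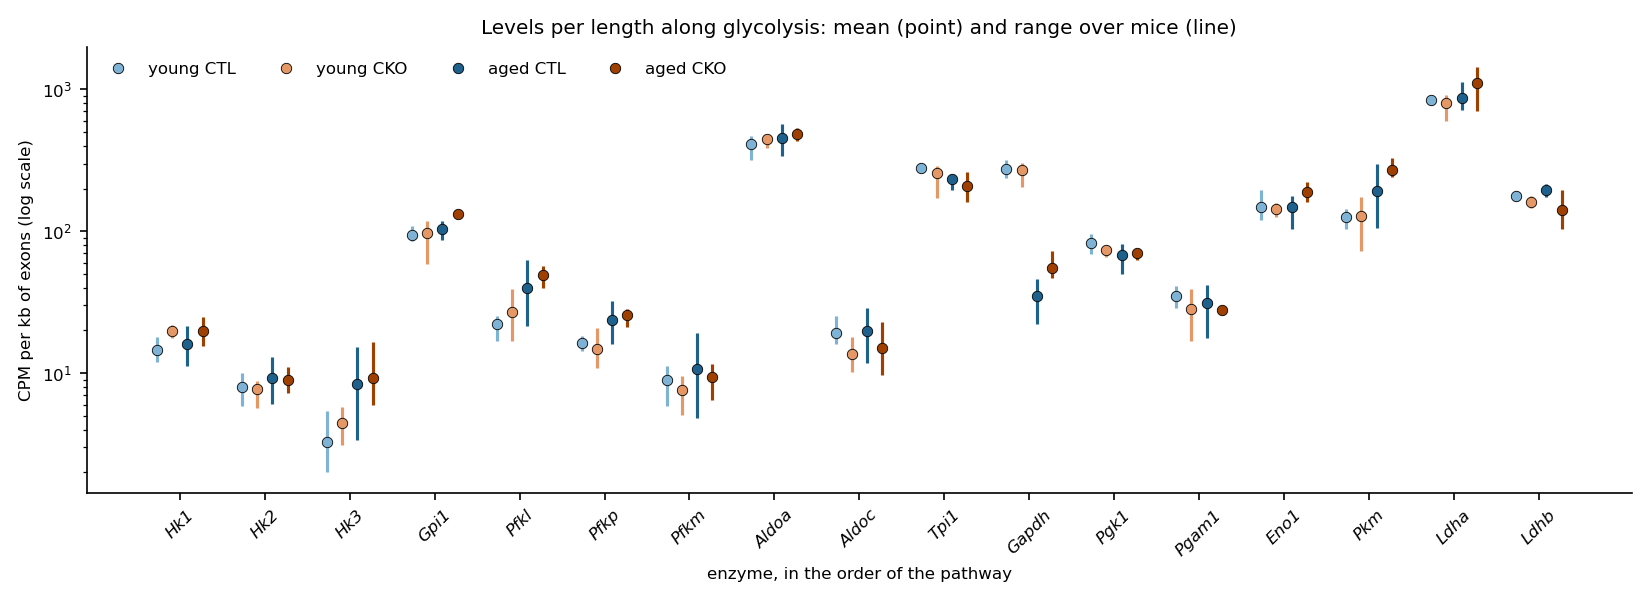
Level per kb of exons (log scale, CPM per kb) of the 10 enzymes and 7 further enzymes of the pathway in the order of the reactions. Points are group means and lines the range over mice. *Ldha* is highest and *Hk2* lowest of the 10 enzymes in each group with the longer record of *Aldoa*, and *Gapdh* stands lower in both aged groups.

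These levels can depend on how reads that match several genes were counted, which is not given in the sources used here. Of all 50-base stretches of its transcript, *Pgk1* shared 68.0% with another annotated gene (GENCODE M21), *Pgam1* 41.5% and *Pkm* 34.4%. The share was 25.3% for *Gpi1*, 17.1% for *Pfkp*, 16.7% for *Ldha* and 13.5% for *Aldoa*, and 2.55% for *Hk1*, 0.0543% for *Pfkl* and 0% for *Hk2*. The levels of *Pgk1* and *Pgam1* are the least certain for this reason, and its part in any difference was not tested.

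The first comparison asks whether deletion of *Ythdf2* went with a change of these enzymes in young mice. None of the 10 passed the test (edgeR's quasi-likelihood test over mice, Benjamini-Hochberg adjustment over all genes tested, threshold 0.05), while 0.174% of the 11526 genes tested did. At an unadjusted p under 0.05 there was 1 of 10 enzymes, against 7.06% of all genes, and 0 of 10 passed by the likelihood ratio tests or DESeq2. Of the 10, 5 lay above 0 and 5 below, with a median log2 fold change of 0.0048 against -0.00093 over all genes tested. The groups overlapped for all 10 enzymes, and 4.77% of all genes tested had groups that did not overlap. In bulk samples such as these, fewer cells that express a gene and less of its RNA per cell cannot be told apart.

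*Hk1*, the hexokinase found in most tissues (chr10:62268855-62379908, minus strand), had the lowest p of the 10 in young mice. It stood at 70.8, 68.1, 58.2 and 86.9 CPM in *Ythdf2* CTL mice and at 92.3, 98.9, 85.3 and 106 CPM in *Ythdf2* CKO mice. Thus 3 of 4 *Ythdf2* CKO mice lay above the highest *Ythdf2* CTL mouse. The difference lay in the B libraries, which stood between 122 and 151 CPM in *Ythdf2* CKO and between 58.2 and 81.3 CPM in *Ythdf2* CTL mice, whereas the A libraries stood between 58.3 and 76.5 CPM and between 45.2 and 91.6 CPM. The log2 fold change was 0.44 (SE 0.18, 95% interval 0.061 to 0.81), with an adjusted p of 0.604, so it did not pass.

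*Ldha* (chr7:46841475-46855627, plus strand) stood at 1684, 1581, 1474 and 1651 CPM in young *Ythdf2* CTL mice and at 1687, 1549, 1130 and 1741 CPM in young *Ythdf2* CKO mice. All but *Ythdf2* CKO mouse 3 lay in a narrow band. Genotypes differed by -0.062 on the log2 scale (95% interval -0.35 to 0.23, adjusted p = 0.973). The interval bounds the difference, and a smaller change cannot be told from none.

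The remaining 8 enzymes had log2 fold changes between -0.29 for *Pgam1* (95% interval -0.82 to 0.23) and 0.27 for *Pfkl* (95% interval -0.26 to 0.80) in young mice. Young *Ythdf2* CKO mouse 3 was the lowest of its group in 8 of the 10 enzymes, all but *Hk2* and *Pfkp*, and mouse 4 the highest in 8 of 10. In mouse 3, *Gpi1* stood at 170 CPM against 300 to 340 CPM in the other 3 mice. *Pgam1* was at 29.8 CPM there against 47.3 to 69.8 CPM, and *Pkm* at 188 CPM against 295 to 451 CPM. The summed level of the 10 enzymes was 2594 CPM in this mouse and between 3451 and 3977 CPM in the other young *Ythdf2* CKO mice, against 3098 to 3726 CPM in young *Ythdf2* CTL mice.

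**Figure D2:**
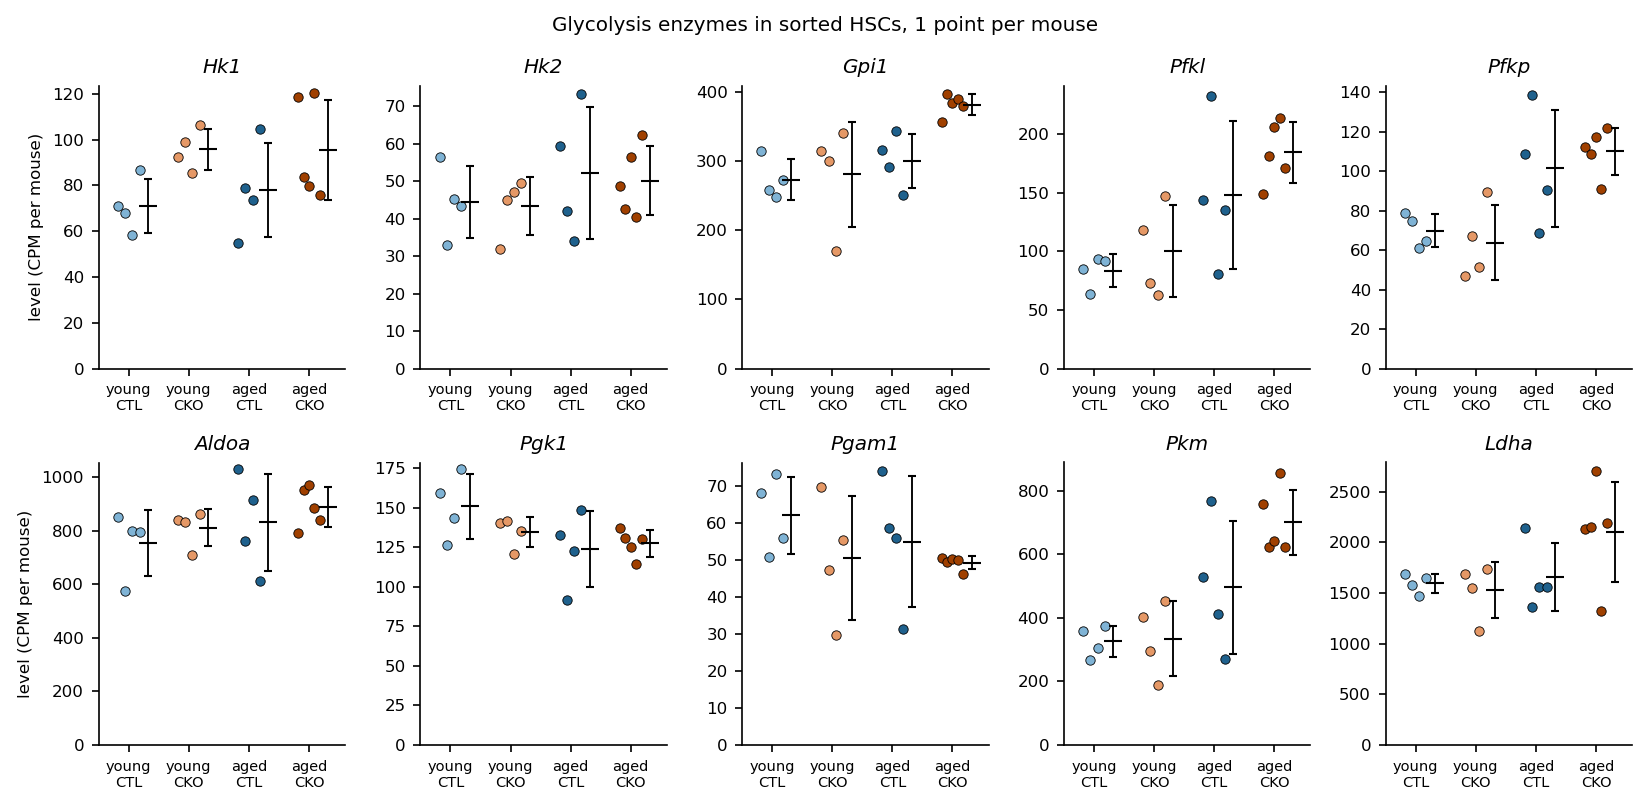
Level of each of the 10 enzymes (CPM, axis from 0) in the 4 groups, with 1 point per mouse and the mean ± SD beside the points. *Pkm*, *Pfkl* and *Pfkp* lie higher in aged than in young *Ythdf2* CKO mice without overlap, and aged *Ythdf2* CKO mouse 121 is the lowest of its group for *Ldha*.

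In aged mice the same comparison gave 0 of 10 enzymes, and 0% of 11961 genes tested passed. Without mice 121 and 124 it called 40 genes and 0 of 10 enzymes, and without mouse 121 alone 16 genes and 0 of 10. At an unadjusted p under 0.05 there was 1 of 10 enzymes against 10.1% of all genes. DESeq2 and the likelihood ratio test over mice called 0 of 10, with 104 and 76 of all genes. The likelihood ratio test over single libraries called 420 genes, among them *Pkm* of the 10 enzymes (log2 fold change 0.64, adjusted p = 0.0464). Of the 10, 8 lay above 0 and 2 below, with a median log2 fold change of 0.22 against -0.0033 over all genes tested. Groups did not overlap for 1 of the 10 enzymes, *Gpi1*, against 3.48% of all genes tested.

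*Gpi1* (chr7:34201330-34230336, minus strand) stood at 316, 291, 343 and 251 CPM in aged *Ythdf2* CTL mice and at 356, 397, 384, 390 and 379 CPM in aged *Ythdf2* CKO mice. The *Ythdf2* CKO mice formed a tight group, mouse 121 included, with an SD of 15.5 CPM (n = 5) against 39.1 CPM in *Ythdf2* CTL mice (n = 4). Genotypes differed by 0.35 on the log2 scale (SE 0.15, 95% interval 0.035 to 0.67), with an adjusted p of 0.443.

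*Ldha* stood at 2143, 1364, 1564 and 1556 CPM in aged *Ythdf2* CTL mice and at 2134, 2149, 2710, 1325 and 2194 CPM in aged *Ythdf2* CKO mice. In the latter, 4 mice lay at or above 2134 CPM and mouse 121 lay below all *Ythdf2* CTL mice. For *Ldha* the log2 fold change was 0.35 (SE 0.20, 95% interval -0.081 to 0.79, adjusted p = 0.579).

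*Pkm* (chr9:59656368-59679375, plus strand) stood at 529, 769, 413 and 272 CPM in aged *Ythdf2* CTL mice and at 758, 623, 641, 855 and 622 CPM in aged *Ythdf2* CKO mice. The *Ythdf2* CTL mice were spread over a wide range, with mouse 124 the lowest and mouse 99 within the range of the *Ythdf2* CKO mice. For *Pkm* the log2 fold change was 0.50 (SE 0.25, 95% interval -0.046 to 1.04, adjusted p = 0.526). The other 7 enzymes lay between -0.15 for *Pgam1* and 0.32 for *Pfkl*.

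The test of whether the genotype effect differed between ages called 0 of 10 enzymes and 0% of 12352 genes tested, and 15 genes and 0 of 10 enzymes without mice 121 and 124. At an unadjusted p under 0.05 there was 0 of 10, against 4.76% of all genes, and 0 of 10 passed by the likelihood ratio tests or DESeq2. *Pkm* and *Ldha* had the largest differences, with 0.46 (95% interval -0.28 to 1.21) for *Pkm* and 0.41 (95% interval -0.12 to 0.94) for *Ldha* on the log2 scale, and an adjusted p of 0.999 for both. This same test also compares the age differences of the 2 genotypes given next, so none of those is shown to be particular to 1 genotype.

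The third comparison sets aged against young mice within each genotype, in a fit over all 17 mice. It was here that members passed the test. In *Ythdf2* CTL mice 1 of 10 enzymes, *Pfkl*, was higher in aged mice and 0 were lower, against 14.8% of all genes tested called in either direction. In *Ythdf2* CKO mice 3 of 10, *Pkm*, *Pfkl* and *Pfkp*, were higher and 0 were lower, against 16.6% of all genes tested. Without mice 121 and 124, 2 of 10 passed in *Ythdf2* CTL and 4 of 10 in *Ythdf2* CKO mice, while the calls over all genes went from 1825 to 2187 and from 2045 to 2241. The median log2 fold change of the 10 was 0.14 in *Ythdf2* CTL and 0.32 in *Ythdf2* CKO mice, against 0.11 and 0.070 over all genes. Called higher alone were 6.7% of all genes in *Ythdf2* CTL and 7.21% in *Ythdf2* CKO mice. The share of members called in *Ythdf2* CTL mice was thus below that of all genes in either direction and above that of genes called higher. With 10 members no share is read further.

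*Pkm* had the largest age difference of the 10 in *Ythdf2* CKO mice. Pyruvate kinase M is made as 2 splice forms, M1 and M2, which counts per gene do not separate. It stood at 402, 295, 188 and 451 CPM in young *Ythdf2* CKO mice and at 622 CPM or more in all 5 aged ones, so the groups did not overlap. Between ages the log2 fold change was 1.07 (SE 0.25, 95% interval 0.54 to 1.59, adjusted p = 0.00669). In *Ythdf2* CTL mice *Pkm* went from 357, 268, 305 and 374 CPM in young mice to the aged values above, of which 3 of 4 lay above all young mice. The log2 fold change there was 0.60 (SE 0.26, adjusted p = 0.123) and did not pass, whereas without mouse 124 it was 0.79 with an adjusted p of 0.0280.

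*Pfkl* (chr10:77986947-78010083, minus strand) stood at 84.9, 63.2, 93.8 and 91.7 CPM in young and at 143, 232, 80.4 and 135 CPM in aged *Ythdf2* CTL mice. In *Ythdf2* CKO mice it stood at 118, 72.9, 62.5 and 147 CPM in young and at 149, 181, 206, 214 and 171 CPM in aged mice. The groups overlapped in *Ythdf2* CTL mice through mouse 114 and did not overlap in *Ythdf2* CKO mice, where the gap was small. Aged and young mice differed by 0.82 on the log2 scale (SE 0.27, adjusted p = 0.0485) in *Ythdf2* CTL and by 0.88 (SE 0.26, adjusted p = 0.0253) in *Ythdf2* CKO mice. Both calls are near the threshold. The call in *Ythdf2* CTL mice was lost without any 1 of the 4 young mice or of aged mice 65, 99 and 124, with adjusted p between 0.0533 and 0.209, and its log2 fold change was 0.52 without mouse 99. The call in *Ythdf2* CKO mice was lost without young mouse 2 or 3 or aged mouse 94 or 121, with adjusted p between 0.0542 and 0.106.

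*Pfkp* (chr13:6579768-6648777, minus strand) stood at 47.0, 67.4, 51.6 and 89.4 CPM in young *Ythdf2* CKO mice and at 113, 109, 117, 90.9 and 122 CPM in aged ones. The lowest aged mouse, 121, was just above the highest young mouse. *Pfkp* in aged *Ythdf2* CKO mice was higher by a log2 fold change of 0.79 (SE 0.21, adjusted p = 0.0149), and it lost its call without young mouse 1 (adjusted p = 0.0573) or young mouse 3 (adjusted p = 0.0626). In *Ythdf2* CTL mice it was 0.53 (SE 0.22, adjusted p = 0.111), with 3 of 4 aged mice above all young mice.

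Without young *Ythdf2* CKO mouse 3, the mouse with low levels above, 1 of 10 enzymes passed in *Ythdf2* CKO mice, *Pkm*, with a log2 fold change of 0.86 and an adjusted p of 0.0309, and the calls over all genes went from 2045 to 1183. *Pkm* passed in all 9 fits that each left out 1 mouse.

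*Gpi1* and *Ldha* did not pass between ages. *Gpi1* differed by 0.44 on the log2 scale in *Ythdf2* CKO mice (SE 0.17, adjusted p = 0.0777), with all 5 aged mice above all young mice, and passed without young mouse 4 (0.55, adjusted p = 0.0464), by DESeq2 (adjusted p = 0.0487) and by the likelihood ratio test over libraries (adjusted p = 0.0172). *Ldha* had 0.46 (SE 0.18, adjusted p = 0.0797), with 4 of 5 aged mice above all young mice, and 0.58 with an adjusted p of 0.0206 without mouse 121. In *Ythdf2* CTL mice the log2 fold changes were 0.14 for *Gpi1* and 0.053 for *Ldha*, with adjusted p of 0.646 and 0.878. The other 5 enzymes, *Hk1*, *Hk2*, *Aldoa*, *Pgk1* and *Pgam1*, lay between -0.28 and 0.24 in *Ythdf2* CTL and between -0.078 and 0.21 in *Ythdf2* CKO mice, and all intervals included 0.

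**Figure D3:**
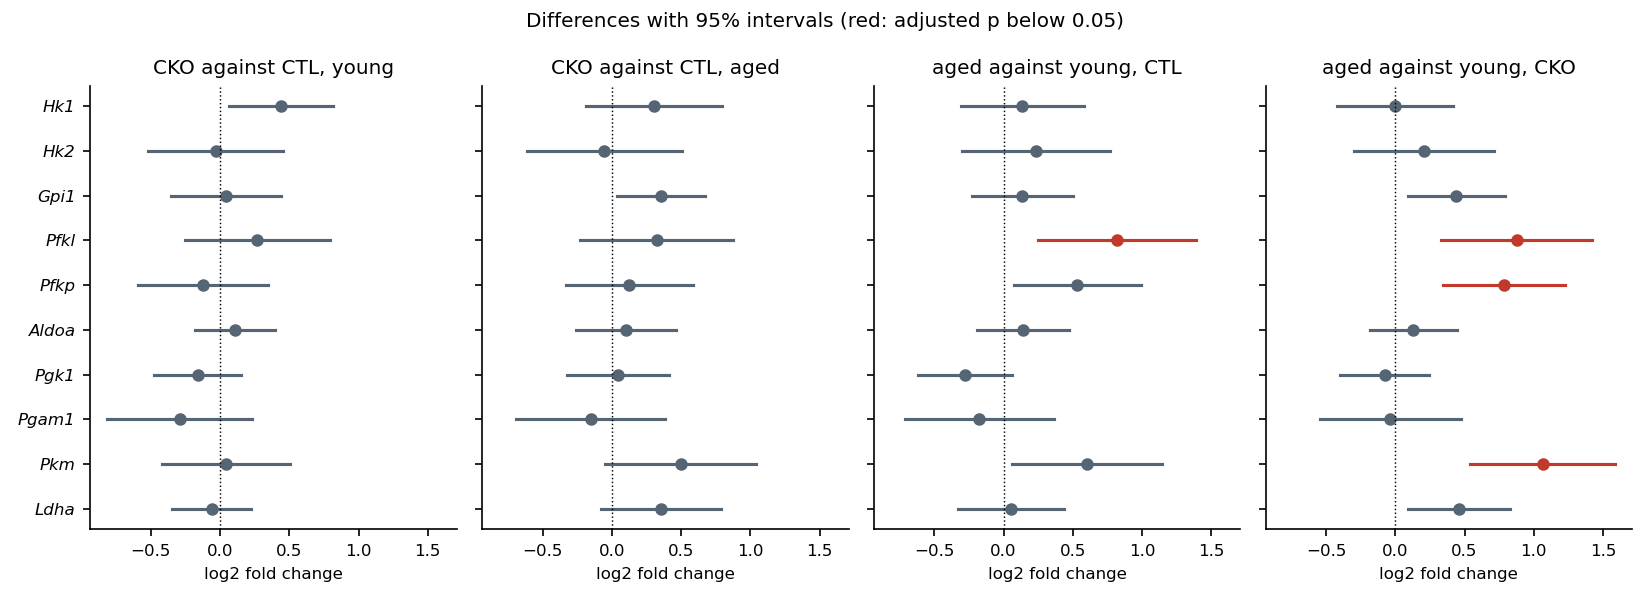
Log2 fold change of the 10 enzymes with its 95% interval in 4 comparisons. Red marks an adjusted p below 0.05, which only *Pfkl* reached between ages in *Ythdf2* CTL mice and *Pfkl*, *Pfkp* and *Pkm* in *Ythdf2* CKO mice.

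Where more than 1 gene encodes an enzyme, the share of each isozyme in the summed level per kb was compared between genotypes. A 2-sided exact permutation test over mice was used, and p-values were adjusted over the 6 comparisons made. *Hk1* held most of the hexokinase level, 56.4 ± 5.70% in young *Ythdf2* CTL mice (n = 4), and *Hk2* held 30.8 ± 6.28% of it. The rest was *Hk3*, a hexokinase known from white blood cells. In aged mice, *Hk2* held 28.4 ± 11.2% in *Ythdf2* CTL (n = 4) and 24.4 ± 7.33% in *Ythdf2* CKO (n = 5), and the mice of both groups were spread from 14.9% to 40.8%.

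The share of *Hk2* was lower by 6.56 points in young *Ythdf2* CKO than in young *Ythdf2* CTL mice, with an exact p of 0.20 (adjusted p = 0.60). *Pfkp* held 34.2 ± 3.88% of phosphofructokinase in young *Ythdf2* CTL and 31.0 ± 7.17% in young *Ythdf2* CKO mice (n = 4 each, exact p = 0.486). In aged mice it held 32.1 ± 3.16% (n = 4) and 30.6 ± 4.37% (n = 5, exact p = 0.619). The mean share of *Pfkp* was thus between 30.6% and 34.2% in all 4 groups.

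*Ldha*, whose subunit favors lactate formation, held 82.5 ± 1.60% of lactate dehydrogenase in young *Ythdf2* CTL and 83.0 ± 3.93% in young *Ythdf2* CKO mice (n = 4 each, exact p = 0.80). The rest was *Ldhb*, whose subunit predominates in heart. In aged *Ythdf2* CTL mice *Ldha* held 85.7, 78.3, 79.3 and 82.4%, and in aged *Ythdf2* CKO mice 89.6, 90.7, 93.3, 78.2 and 87.9%. The 4 *Ythdf2* CKO mice other than 121 lay above all *Ythdf2* CTL mice, and mouse 121 lay below them.

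The difference in the share of *Ldha* was 6.50 points with all aged mice (exact p = 0.111, adjusted p = 0.60). Without mouse 121 it was 8.94 points with an exact p of 0.0286, the smallest that 4 against 4 mice can give, unadjusted. Without both 121 and 124 it was 9.27 points with an exact p of 0.0571, the smallest that 4 against 3 mice can give. *Ldhb* stood between 229 and 282 CPM in aged *Ythdf2* CTL mice, at 255 CPM in mouse 121 and between 134 and 207 CPM in the other aged *Ythdf2* CKO mice. Its log2 fold change was -0.46 (SE 0.19, adjusted p = 0.441) with all aged mice and -0.66 (adjusted p = 0.147) without mice 121 and 124, so it did not pass. Of the 50-base stretches of *Ldhb*, 27.0% are shared with another gene.

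**Figure D4:**
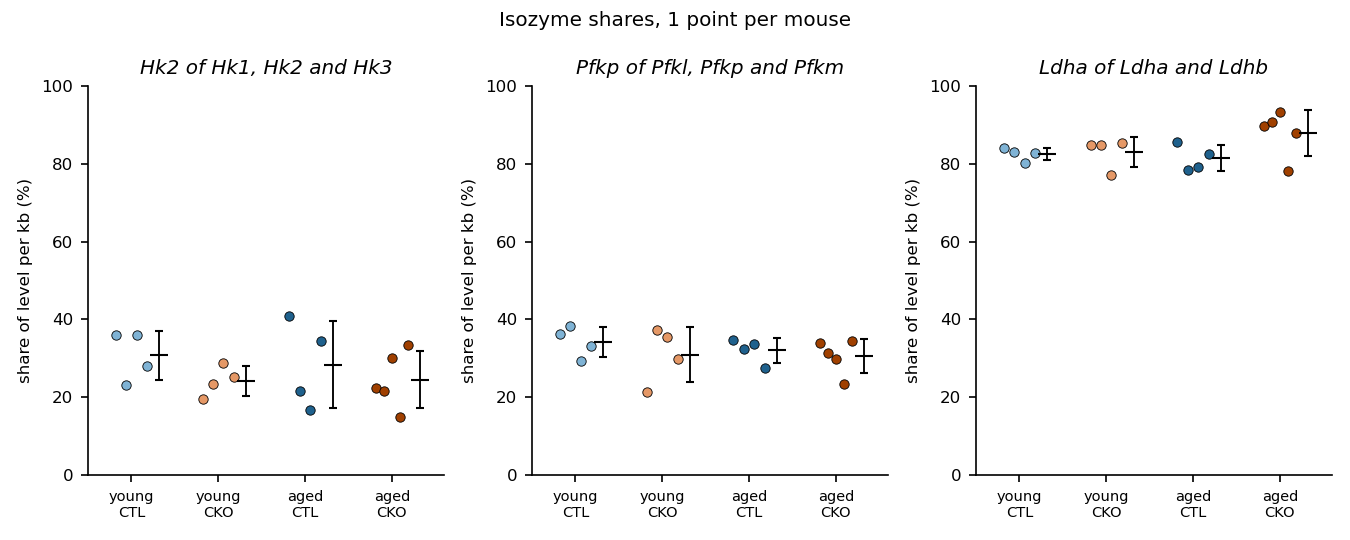
Share (%) of *Hk2*, *Pfkp* and *Ldha* in the summed level per kb of their isozymes, with 1 point per mouse and mean ± SD. *Ldha* is above 87% in 4 of 5 aged *Ythdf2* CKO mice and at 78.2% in mouse 121.

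The other enzymes of the pathway were read from a list of 18, of which 12 were in the table and 11 were tested. In each genotype comparison 0 of 11 passed, against 0.174% of all genes in young and 0% in aged mice. Between ages 0 were higher and 1 was lower in each genotype, against 8.07% and 9.34% of all genes called lower. That gene was *Gapdh*, which oxidizes glyceraldehyde 3-phosphate. *Gapdh* stood between 357 and 473 CPM in young *Ythdf2* CTL mice and between 33.0 and 68.7 CPM in aged ones. In *Ythdf2* CKO mice it stood between 305 and 455 CPM in young and between 69.6 and 108 CPM in aged mice.

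The groups were thus far apart in both genotypes. The log2 fold change of *Gapdh* was -2.97 (SE 0.22, adjusted p = 8.1e-08) in *Ythdf2* CTL and -2.29 (SE 0.20, adjusted p = 1.4e-06) in *Ythdf2* CKO mice. Its neighbors in the pathway differed less, with -0.27 and -0.30 for *Tpi1* before it and -0.28 and -0.078 for *Pgk1* after it. *Eno1*, further down, had 0.016 and 0.40. None of these passed. Of the 50-base stretches of *Gapdh*, 82.5% are shared with other annotated genes, against 7.51% for *Tpi1* and 72.2% for *Eno1*. Sample codes and age coincide here, and the part of read sharing in the result was not tested.

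The carriers and regulators around the pathway were also compared between ages. Over all genes tested, 6.7% were called higher and 8.07% lower in aged *Ythdf2* CTL mice, and 7.21% higher and 9.34% lower in aged *Ythdf2* CKO mice. Of 7 glucose and lactate carriers tested, 1 was higher in each genotype (14.8% and 16.6% of all genes were called in either direction), *Slc2a3*, a glucose transporter of high affinity. It stood between 55.0 and 80.9 CPM in young and between 82.1 and 240 CPM in aged *Ythdf2* CTL mice (log2 fold change 1.26, SE 0.29, adjusted p = 0.00603). In *Ythdf2* CKO mice it went from 54.8 to 104 CPM in young to 134 to 227 CPM in aged mice (log2 fold change 1.01, SE 0.27, adjusted p = 0.0143). The aged mice lay above all young mice in both genotypes. Among *Ythdf2* CKO mice the call was lost without young mouse 2 (adjusted p = 0.0632) or 3 (adjusted p = 0.0518).

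Of 11 regulators of flux, 2 were higher in aged mice in each genotype and 1 was lower in *Ythdf2* CTL mice, against 14.8% of all genes called in *Ythdf2* CTL and 16.6% in *Ythdf2* CKO mice. *Pfkfb4*, which sets fructose 2,6-bisphosphate, an activator of phosphofructokinase, had 5.70 ± 2.78 CPM in young and 23.2 ± 8.84 CPM in aged *Ythdf2* CTL mice (SD, n = 4 each, log2 fold change 2.03, SE 0.49, adjusted p = 0.00940). Its log2 fold change was 1.40 (SE 0.47, adjusted p = 0.0430) in *Ythdf2* CKO mice, where leaving out any mouse but young mouse 4 ended the call (adjusted p between 0.0545 and 0.127). *Pdp2*, a phosphatase that activates pyruvate dehydrogenase, had 1.51 (SE 0.36, adjusted p = 0.00811) and 1.58 (SE 0.34, adjusted p = 0.00392). *Pdk3*, a kinase that inactivates pyruvate dehydrogenase, was lower by a log2 fold change of -0.60 in *Ythdf2* CTL mice (SE 0.17, adjusted p = 0.0202), a call lost without young mouse 1 or 4 or aged mouse 114 (adjusted p between 0.0517 and 0.0669).

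Of 7 genes of pyruvate dehydrogenase and the mitochondrial pyruvate carrier, 0 were higher, 2 were lower in *Ythdf2* CTL and 3 in *Ythdf2* CKO mice, against the same 8.07% and 9.34% of all genes called lower. *Dld*, the dihydrolipoamide dehydrogenase that this complex shares with others, had log2 fold changes of -0.82 (adjusted p = 0.00818) and -0.85 (adjusted p = 0.00336). *Mpc2*, a subunit of the carrier that brings pyruvate into mitochondria, had -0.84 (adjusted p = 0.00477) and -0.56 (adjusted p = 0.0270), the latter lost without young mouse 2 or 3 or aged mouse 94 (adjusted p between 0.0723 and 0.120). *Pdhb*, a subunit of pyruvate dehydrogenase, had -0.59 (adjusted p = 0.00604) in *Ythdf2* CKO mice.

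**Figure D5:**
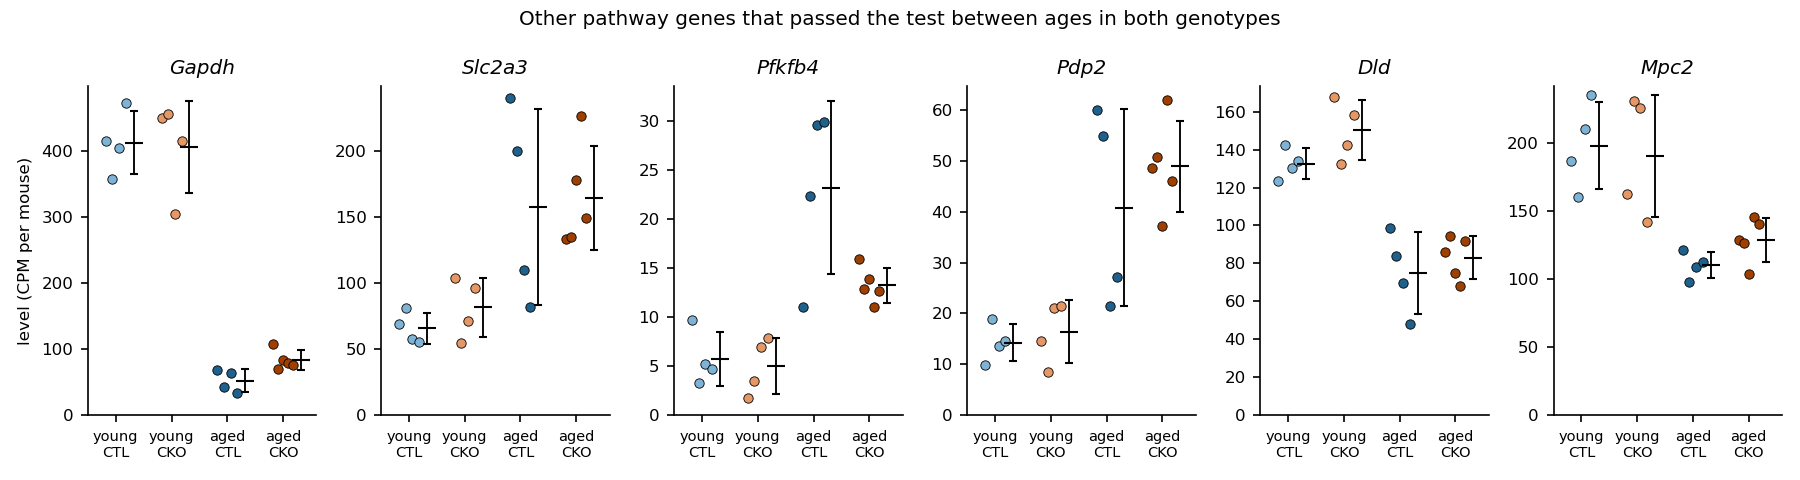
Level (CPM, axis from 0) of *Gapdh*, *Slc2a3*, *Pfkfb4*, *Pdp2*, *Dld* and *Mpc2*, with 1 point per mouse and mean ± SD. *Gapdh*, *Dld* and *Mpc2* are lower and *Slc2a3*, *Pfkfb4* and *Pdp2* higher in aged mice of both genotypes.

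Among 13 other known HIF target genes tested, 0 were higher between ages, 1 was lower in *Ythdf2* CTL mice and 3 were lower in *Ythdf2* CKO mice, against 8.07% and 9.34% of all genes called lower. For *Ythdf2* CKO mice the log2 fold change of *Bnip3*, a mitophagy receptor, was -0.93 (adjusted p = 0.00344), that of *P4ha1*, a collagen prolyl hydroxylase subunit, -0.996 (adjusted p = 0.0463), and that of *Higd1a*, a mitochondrial protein, -0.70 (adjusted p = 0.0104). *Higd1a* was also the gene that passed in *Ythdf2* CTL mice, with -0.57 (adjusted p = 0.0448). Leaving out 1 mouse ended the call of *P4ha1* for 7 of 9 mice, all but young mice 2 and 4, with a log2 fold change of -0.55 (adjusted p = 0.278) without young mouse 1. It ended that of *Higd1a* without young mouse 3 in *Ythdf2* CKO mice (adjusted p = 0.0544) and without 6 of 8 mice, all but young mouse 2 and aged mouse 124, in *Ythdf2* CTL mice (adjusted p between 0.0777 and 0.156). Of 11 transcription factors and oxygen sensors tested, 1 was higher in *Ythdf2* CKO mice, *Mycn*, with 0.96 (adjusted p = 0.00800), against 7.21% of all genes, and 0 passed in *Ythdf2* CTL mice. Of 8 genes of the pentose phosphate pathway, which draws on glucose 6-phosphate, 0 passed in either.

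Of 3 genes of gluconeogenesis tested in young mice, 1 passed between genotypes, against 0.174% of all genes, and in aged mice 0 of 4 passed. *Fbp1*, which opposes phosphofructokinase by removing a phosphate from fructose 1,6-bisphosphate, stood at 62.9, 92.1, 52.0 and 47.6 CPM in young *Ythdf2* CTL and at 14.2, 23.0, 21.4 and 14.0 CPM in young *Ythdf2* CKO mice. Its log2 fold change in young mice was -1.81 (SE 0.27, adjusted p = 0.0145), and it lost its call without *Ythdf2* CTL mouse 1 or 2 or *Ythdf2* CKO mouse 1 (adjusted p between 0.0620 and 0.0832) with log2 fold changes of -1.82, -1.57 and -1.71, and with a Y-linked covariate (-1.78, adjusted p = 0.0837). With all mice in 1 fit it was again -1.81, with an adjusted p of 0.999. In aged *Ythdf2* CTL mice it stood at 41.8, 101, 54.7 and 47.6 CPM, and in aged *Ythdf2* CKO mice at 9.67, 8.96, 7.78, 98.5 and 4.87 CPM. Mouse 121 alone lay in the range of the *Ythdf2* CTL mice. The log2 fold change in aged mice was -1.23 (SE 0.75, adjusted p = 0.611) with all mice and -3.06 (adjusted p = 0.00231) without mice 121 and 124, and -2.95 (adjusted p = 0.00835) without mouse 121 alone.

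Several measures moved with the groups beside these results, and their part was not tested. *Cd48* was lower in aged mice of both genotypes, with log2 fold changes of -2.48 (adjusted p = 0.0273) and -3.04 (adjusted p = 0.00489), and so was *Pcna*, a replication factor, with -0.94 (adjusted p = 0.00123) and -0.50 (adjusted p = 0.0250). Of 10 cell cycle genes, *Pcna* among them, 2 were lower in aged *Ythdf2* CTL and 1 in aged *Ythdf2* CKO mice, against 8.07% and 9.34% of all genes. The 10 did not all move as *Pcna* did. In *Ythdf2* CTL mice 3 lay above 0 and 7 below, with a median log2 fold change of -0.41. In *Ythdf2* CKO mice 5 lay above 0 and 5 below, with a median of 0.027. Their summed level was between 1068 and 2911 CPM in all mice. Of 6 megakaryocyte and platelet genes, 3 were higher in aged than in young *Ythdf2* CKO mice and 1 in *Ythdf2* CTL mice, against 7.21% and 6.7% of all genes. Between genotypes 1 of the 6 passed in young mice, *Pf4*, a platelet chemokine, with a log2 fold change of 1.80 (adjusted p = 0.0488), against 0.174% of all genes. Their summed level was between 513 and 872 CPM in young *Ythdf2* CTL, 1005 and 3146 CPM in young *Ythdf2* CKO, 390 and 611 CPM in aged *Ythdf2* CTL and 568 and 2084 CPM in aged *Ythdf2* CKO mice, and no gene of this list in the table was under 1 CPM in all mice.

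The libraries of a mouse differ by the spread within an animal and by any shift between libraries A and B. Over the 16 mice with 2 libraries, the median difference between libraries A and B was smallest for *Pgam1*, at 0.19 on the log2 scale, and largest for *Pfkl*, at 0.72, with up to 1.53 in 1 mouse. For *Pkm* it was 0.47 and for *Ldha* 0.25. *Pfkl*, the enzyme called in both genotypes, was therefore also the one whose libraries differed most within a mouse. In every young mouse *Pfkl* and *Pkm* were higher in library B than in library A. *Pfkl* stood at 45.4 CPM in A and 132 CPM in B of young *Ythdf2* CTL mouse 1. *Pkm* stood at 230 and 536 CPM in those of young *Ythdf2* CTL mouse 4. In aged mice the direction differed between mice, and the part of this shift in the age differences was not tested.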

How the data were processed

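Reads were aligned by the authors to GRCm38 (mm10) with HISAT2, Rsubread gave the counts, and the table the authors deposited holds raw whole-number counts for each gene and library. The annotation, the use of strand and the rule for shared reads are not given in the sources used here. The 33 libraries used were summed to 17 mice, which were the replicates. In the table, 20 rows carried names that had turned into dates. Tests used R 4.3.3 and edgeR 4.0.16: filterByExpr (minimum count 10, minimum total count 15), TMM scaling and the quasi-likelihood test, with p-values adjusted by the Benjamini-Hochberg method and a threshold of 0.05. Genotypes were compared in a separate fit for each age, and all 17 mice in 1 fit were used for age and for the difference of genotype effects. The authors used likelihood ratio tests with libraries as replicates. SE is the absolute log2 fold change over the root of the F statistic. Levels per kb used exon lengths of GENCODE M21 (GRCm38), and CPM in the text come from the fit over all mice.

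Shares were compared in Python 3.11.15 with scipy 1.17.1. Members, pathway lists and tests were chosen with earlier results of these data known. All members are named, and of the lists every gene that passed, up to 5 per list and comparison, and isozymes. *Cd48*, *Pcna*, *Pf4* and *Car2* were named after their values were seen. Alternatives were the likelihood ratio test over mice or libraries, DESeq2 1.42.0 or only its size factors, no filter or another filter for low counts, all mice in 1 fit, a Y-linked covariate, replicate blocks, shares without length, and mice left out. The code was tested on simulated data. PCR reads without molecular identifiers are not independent molecules, so counts understate the error of a library.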

Additional observations from a re-analysis of the deposited data

Results flagged for a closer look

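Of 92 groups of 4 or 5 mice examined, 4 held a mouse far from the others of its group, while chance gives about 1 in 20 (4.6). *Pgam1* was lowest in aged *Ythdf2* CKO mouse 122, at 46.2 CPM, with the next mouse at 49.6 CPM, a small gap in a group with a small spread. The share of *Ldha* in lactate dehydrogenase was lowest in young *Ythdf2* CKO mouse 3, at 77.2%, with the next mouse at 84.8%. *Fbp1* was highest in the mouse labelled aged *Ythdf2* CKO 121, at 98.5 CPM, with the next mouse at 9.67 CPM. *Ythdf2* was highest in the same mouse, at 188 CPM, with the next mouse at 87.7 CPM.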

How the results depend on the processing

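Of the values of the 10 enzymes recomputed under alternatives, 0 of 180 in young and 1 of 190 in aged mice (genotype) crossed the threshold, 0 of 250 for the difference between ages, and 12 of 160 and 12 of 170 for age in *Ythdf2* CTL and *Ythdf2* CKO mice. Over libraries, the likelihood ratio test called 1 enzyme in aged mice, 0 for age in *Ythdf2* CTL and 5 for age in *Ythdf2* CKO mice, and gave 0.0019 for *Hk2* and -0.0064 for *Gpi1* in young and -0.0034 for *Pgk1* in aged mice. Without a filter on low counts, or with a CPM of at least 1, 0 enzymes were called for age in *Ythdf2* CTL mice. Without aged *Ythdf2* CKO 121 and *Ythdf2* CTL 124, 2 were called there, and signs changed to 0.21 for *Hk2* and -0.025 for *Aldoa* (aged genotype), 0.25 for *Hk2*, -0.037 for *Pfkl* and -0.065 for *Pgam1* (difference between ages), -0.047 for *Hk1* and 0.023 for *Pgam1* (age, *Ythdf2* CTL), and 0.51 points for the aged *Hk2* share. A Y-linked covariate gave 0.10 for *Hk2* and 0.030 for *Aldoa* (difference between ages) and 0.0022 for *Pgam1* (age, *Ythdf2* CKO).

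Young mice share only numbers, being different animals: same-numbered mice correlated at between -0.044 and 0.049. With mouse number as a replicate block, 14 genes and 0 enzymes were called in young mice, and *Pkm* was at -0.021. With the library letter as a block, *Hk2* was at 0.0061 in young and *Pgk1* at -0.012 in aged mice, and 0 enzymes were called.

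With 1 mouse left out, the enzymes called were 0 to 1 for age in *Ythdf2* CTL and 1 to 4 in *Ythdf2* CKO mice. Signs changed for uncalled values, with ranges in young mice of -0.15 to 0.10 for *Hk2*, -0.064 to 0.22 for *Gpi1*, -0.14 to 0.24 for *Pkm* and -0.13 to 0.059 for *Ldha*. In aged mice they were -0.22 to 0.14 for *Hk2*, -0.029 to 0.30 for *Pfkp*, -0.030 to 0.21 for *Aldoa*, -0.083 to 0.13 for *Pgk1* and -0.36 to 0.016 for *Pgam1*. For the difference between ages they were -0.28 to 0.049 for *Hk1*, -0.19 to 0.19 for *Hk2*, -0.15 to 0.35 for *Pfkl*, -0.13 to 0.11 for *Aldoa* and -0.057 to 0.33 for *Pgam1*. For age in *Ythdf2* CTL mice they were -0.061 to 0.27 for *Hk1*, -0.37 to 0.010 for *Pgam1* and -0.10 to 0.13 for *Ldha*, and in *Ythdf2* CKO mice -0.10 to 0.058 for *Hk1* and -0.23 to 0.15 for *Pgam1*. Shares ranged from -7.82 to 0.26 points for aged *Hk2*, -3.005 to 0.28 for aged *Pfkp*, -0.23 to 2.51 for young *Ldha* and 5.16 to 8.94 for aged *Ldha*. The cause of these changes was not tested. With 1 mouse left out, genes called ranged from 0 to 18 in young mice, 0 to 16 in aged mice and 0 to 2 for the difference. For age they ranged from 896 to 2048 in *Ythdf2* CTL and from 1183 to 1975 in *Ythdf2* CKO mice. Over all alternatives together, genes called ranged from 0 to 90 in young, 0 to 420 in aged mice and 0 to 15 for the difference. For age these ranges were 896 to 2593 in *Ythdf2* CTL and 1183 to 3112 in *Ythdf2* CKO mice.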
